A study of Mus musculus with 46 samples.

Results

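The genes of sterol synthesis and of fatty acid synthesis were followed through mouse mammary tumors of 8 genetically engineered models and through normal mammary gland. The 39 genes were listed by name for their place in these pathways, 18 for the sterol branch and 21 for the fatty acid branch. A gene was represented by its probe set with the highest mean over all 46 arrays. This gave values for 37 genes, 16 of the sterol branch and 21 of the fatty acid branch, out of 9329 genes tested. All 37 had a log2 value over 4 in at least 3 arrays, the limit below which a gene was left out. Acaca passed this limit in the 5 glands alone. Mvk, mevalonate kinase, and Insig1, which holds the SREBP proteins back in the endoplasmic reticulum, were not analysed here.

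Cells build cholesterol from acetyl-CoA through mevalonate, farnesyl diphosphate, squalene and lanosterol. They build fatty acids from the same acetyl-CoA by carboxylation to malonyl-CoA, chain assembly on fatty acid synthase, elongation, desaturation, and finally esterification to glycerol. The transcription factor SREBP2, encoded by Srebf2, is best known for turning on the sterol enzymes, and SREBP1, encoded by Srebf1, for turning on the fatty acid enzymes. In the mammary gland fatty acid synthesis rises during pregnancy and lactation, when the alveolar epithelium makes milk fat, and adipocytes of the gland's fat pad run the same enzymes.

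RNA of 41 primary tumors and of 5 mammary glands of FVB mice in late pregnancy was hybridized to a mouse genome array, 1 array each. In C3TAg tumors (n = 5, FVB) the C3(1) promoter, the flanking region of a rat prostate gene, drives the SV40 T antigens. In the tumors labelled p53-/- (n = 7, Balb/C) floxed p53 alleles are deleted by MMTV-cre and the tissue is transplanted into host mice, whose own stroma surrounds it. In those labelled Brca1-/-p53+/- (n = 5, 129B6/FVB) MMTV-cre deletes floxed Brca1 alleles in mice that carry a single working p53 allele. The MMTV promoter, active in mammary epithelium and also in some other tissues, drives the oncogene in 5 FVB models, which are MMTV-Hras (n = 5), MMTV-H2N with Her2/neu (n = 5), MMTV-C-Myc (n = 4), MMTV-PymT with polyoma middle T (n = 6) and MMTV-Wnt with the Wnt ligand transgene (n = 4). The sources used here give no ages. All glands were FVB, so that strain and model cannot be told apart for the p53-/- and Brca1-/-p53+/- tumors.

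Short stretches of promoter are shown because most sterol genes carry a CCAAT box, the site of the NF-Y factor that works with SREBP. RefSeq windows (GRCm38.p6, 250 bases before to 50 after each start) were matched by symbol for 30 listed genes, 14 of the sterol and 16 of the fatty acid branch. Capitals mark the match nearest before the start, CCAAT or, on the other strand, ATTGG; in the line of Hmgcs1 they mark the sterol regulatory element searched as TCACNCCAC. None of these matches overlapped a match to the other motifs searched. Coordinates are those of the printed bases, read on the strand of the gene.
Cyp51, chr5:4104710-4104738, minus strand: cgctgtccgccaCCAATctggtcctgaga
Dhcr7, chr7:143830153-143830181, plus strand: aatccacttccgATTGGtcgtctgtgacc
Lss, chr10:76531531-76531559, plus strand: ggtgatgctctgATTGGccgagctcgcat
Srebf2, chr15:82147122-82147150, plus strand: cttcgcgcgccgATTGGctaatgcaagcc
Pmvk, chr3:89454393-89454421, plus strand: aactcaggttggCCAATtcacagcatcta
Fasn, chr11:120824590-120824618, minus strand: cctcggtgtccaATTGGtttcgatgtgga
Thrsp, chr7:97417586-97417614, minus strand: ggctgtgttgctCCAATggttgggctttg
Gpam, chr19:55127296-55127324, minus strand: ctgaagctttcgATTGGctgatcaagctc
Hmgcs1, chr13:119690204-119690232, plus strand: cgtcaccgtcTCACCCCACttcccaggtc
CCAAT, on either strand, was in a window of 14 of 14 sterol genes and 11 of 16 fatty acid genes (68.8%), against 42.8% of the 7523 tested genes with a window. GGGCGG, the core of the Sp1 site, was found for 13 of 14 sterol genes and 9 of 16 fatty acid genes (56.2%), against 68.5% of tested genes. TCACNCCAC was found for 1 sterol gene, Hmgcs1, and 0 of 16 fatty acid genes, against 1.41% of tested genes. A match is a description of letters only, and genes with several starts had more than 1 window.

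Before the comparisons, the tissue labels were set against marker genes. Krt8 and Krt18, keratins of luminal epithelium, lay above the highest gland in 35 and 39 of 41 tumors. Other keratins went the other way, since Krt19 lay below the lowest gland in 29 tumors (under a log2 value of 3 in 12), and the basal keratins Krt5 and Krt14 in 34 and 26. Epcam, an epithelial surface protein, was at a log2 value of 3.60 in MMTV-Wnt replicate 3 and at 5.28 and 2.99 in Brca1-/-p53+/- replicates 3 and 4, against 10.55 to 14.64 in the other tumors. Brca1-/-p53+/- replicate 2 was the array least like its group (mean r of 0.728 with the other 4). Its adipocyte markers averaged 5.74 on the log2 scale relative to each gene's mean, within the 5.04 to 7.62 of the glands, against -2.14 to 2.40 in the other 40 tumors. Results are therefore also given without these 4 tumors where that changes them, a setting that keeps only replicates 1 and 5 of Brca1-/-p53+/-. The glands differed among themselves too. Ucp1, the uncoupling protein that marks brown fat, read 13.01, 13.96 and 14.05 in gland replicates 1, 2 and 3 but 2.13 and 2.24 in replicates 4 and 5, and it was under 3 in 36 of 41 tumors. Comparisons with gland are therefore also given against replicates 4 and 5 alone where that changes them, a setting chosen after the values were seen.

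The fatty acid branch stood far lower in tumors than in pregnant gland, whereas the sterol branch was called in either direction about as often as genes in general. In the equal-weighted mean of the 8 models against normal gland, 17 of 21 fatty acid genes were lower and 1, Scd2, was higher, with a median log2 difference of -2.76. Among the 17 is Acaca, which passed the filter through the glands alone. Of the 16 sterol genes 4 were higher and 2 lower, with a median of 0.05. Over all 9329 genes 24.2% were called higher and 17.1% lower (limma, Benjamini-Hochberg adjusted p under 0.05), with a median of 0.20, so that both sterol counts are near the background. With all array medians set equal the median of all genes moved to -0.02, so differences near these values carry no direction. Without the 4 tumors named above the 24 calls were all retained and Idi1 and Srebf2 were added as higher. Without the 3 glands high in Ucp1, 20 of the 24 calls were retained, those of Pmvk, Sqle, Cyp51 and Fads2 were lost, and Elovl1 was added as lower. This left 17 of 21 fatty acid genes lower (all genes 7.87%) and 1 higher, and 2 of 16 sterol genes higher (all genes 7.79%) and 1 lower.

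**Figure D1:**
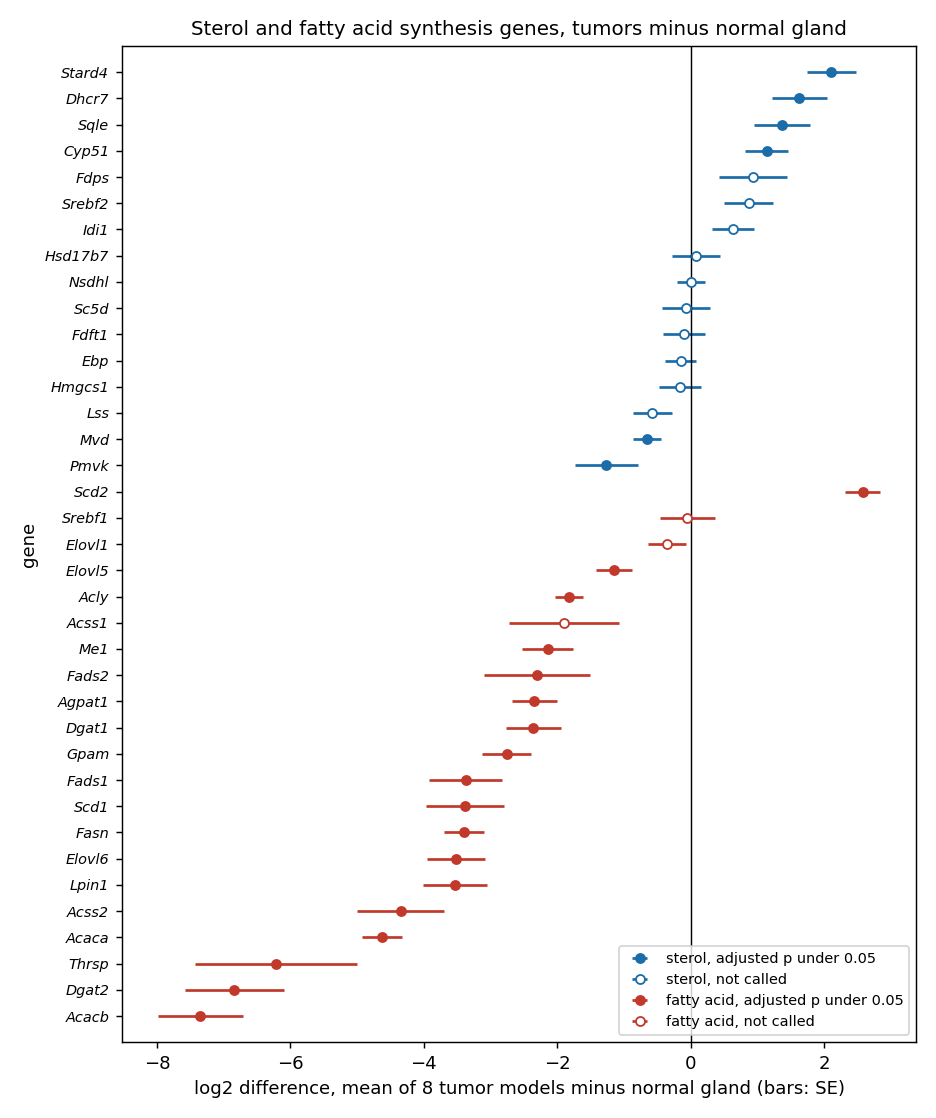
Log2 difference (x axis) between the mean of the 8 tumor models and normal gland for each of 37 genes (y axis), with bars of 1 SE; blue, sterol; red, fatty acid; filled, adjusted p under 0.05. Red points lie mostly left of 0, down to -7.35 for Acacb, with Scd2 alone among them clearly to the right at 2.58.

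The enzymes that make palmitate were lower together. Of the 7 genes of acetyl-CoA supply and chain synthesis 6 were called lower (all genes 17.1%) and 0 higher (24.2%). Acaca is among the 6 although it passed the filter through the glands alone. Fasn, fatty acid synthase itself, read 13.99, 14.76, 14.65, 14.25 and 14.03 on the log2 scale in the 5 glands and 9.46 to 12.64 (median 10.90) in the 41 tumors, a difference of -3.40 (SE 0.30, adjusted p = 7.96e-12). Every tumor lay below every gland for this enzyme. Acly, ATP citrate lyase, which supplies cytosolic acetyl-CoA, read 12.87 to 13.89 in the glands and 10.27 to 12.65 in the tumors, again without overlap, a difference of -1.82 (SE 0.21, adjusted p = 1.07e-08).

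Acetyl-CoA carboxylase commits acetyl-CoA to fatty acids, and its mRNAs were near the lowest values of the array in most tumors. Acacb, the mitochondrial form, read 9.60, 11.84, 11.67, 9.27 and 8.19 in the glands and 2.03 to 9.09 (median 2.20) in the tumors, a difference of -7.35 (SE 0.64, adjusted p = 6.87e-12). In 32 tumors it was under a log2 value of 3, and the highest tumor, Brca1-/-p53+/- replicate 2, is the one with gland-like adipocyte markers. Acaca, the cytosolic form, read 6.22, 8.99, 6.54, 8.13 and 4.09 in the glands and 2.08 to 2.92 in the tumors (difference -4.63, SE 0.30, adjusted p = 1.41e-15). Since all 41 tumors were under 3, near the lowest value of 1.70 in the whole table, the size of that difference rests on the glands alone. Acaca was over the filter limit of 4 in only 5 arrays, the glands. Its lower calls and its lack of overlap were thus largely set by the filter and add no support where it is counted. Acss2, which makes acetyl-CoA from acetate in the cytosol, read 10.49 to 12.39 in the glands and 2.56 to 10.74 in the tumors (difference -4.35, SE 0.65, adjusted p = 1.01e-06). Me1, malic enzyme, which supplies NADPH, was lower by the mean of the models (-2.14, SE 0.39, adjusted p = 2.32e-05), although 2 MMTV-H2N tumors exceeded the highest gland. Acss1, the mitochondrial acetyl-CoA synthetase, had a difference of -1.90 (SE 0.83) that did not pass (adjusted p = 0.0616).

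Scd1 and Scd2, paralogous stearoyl-CoA desaturases that make oleate and palmitoleate, moved in opposite directions. Their single-array values were chosen for display after they had been seen. Scd1 read 15.04, 15.47, 15.43, 15.30 and 15.28 in the glands and 7.75 to 14.74 (median 12.20) in the tumors (difference -3.39, SE 0.58, adjusted p = 1.05e-05). Scd2 read 9.47, 10.31, 10.80, 10.88 and 10.27 in the glands and 11.11 to 14.19 (median 12.89) in the tumors (difference 2.58, SE 0.27, adjusted p = 5.97e-10). All 41 tumors lay below all 5 glands for Scd1 and above them for Scd2. The other Scd1 probe set gave -5.33, and the other Scd2 probe sets gave 2.77 and 3.39. Scd2 was the only member with every tumor above every gland, which held for 0.461% of all tested genes. The 8 members with every tumor below every gland were Acaca, Acly, Dgat2, Elovl6, Fasn, Lpin1, Scd1 and Thrsp, against 1.23% of all tested genes. Acaca is in this count only because it passed the filter in the glands.

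Chain-modifying enzymes were lower except for Scd2 and Elovl1. Elovl6, which elongates palmitate to stearate, read 11.61, 12.75, 13.27, 11.33 and 11.56 in the glands and 5.29 to 10.59 in the tumors (difference -3.52, SE 0.44, adjusted p = 3.29e-08). Fads1, the delta-5 desaturase of polyunsaturated fatty acids, read 12.67, 12.78, 11.77, 13.73 and 13.01 in the glands and 3.69 to 12.44 (median 9.71) in the tumors, and 38 of 41 tumors lay below the lowest gland (difference -3.37, SE 0.55, adjusted p = 4.04e-06). Fads2, the delta-6 desaturase, had a difference of -2.30 (SE 0.80, adjusted p = 0.0184), a call lost without gland replicate 4 and against replicates 4 and 5 alone (-3.0, limma adjusted p = 0.101). Elovl5 was lower by 1.15 on the log2 scale (SE 0.27, adjusted p = 0.000715). Elovl1, the elongase of very long saturated chains, did not pass with the probe set used (-0.36, adjusted p = 0.326), and of its other probe sets one gave -1.37 and was called lower; against gland replicates 4 and 5 alone the probe set used gave -1.28 (limma adjusted p = 0.0231).

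**Figure D2:**
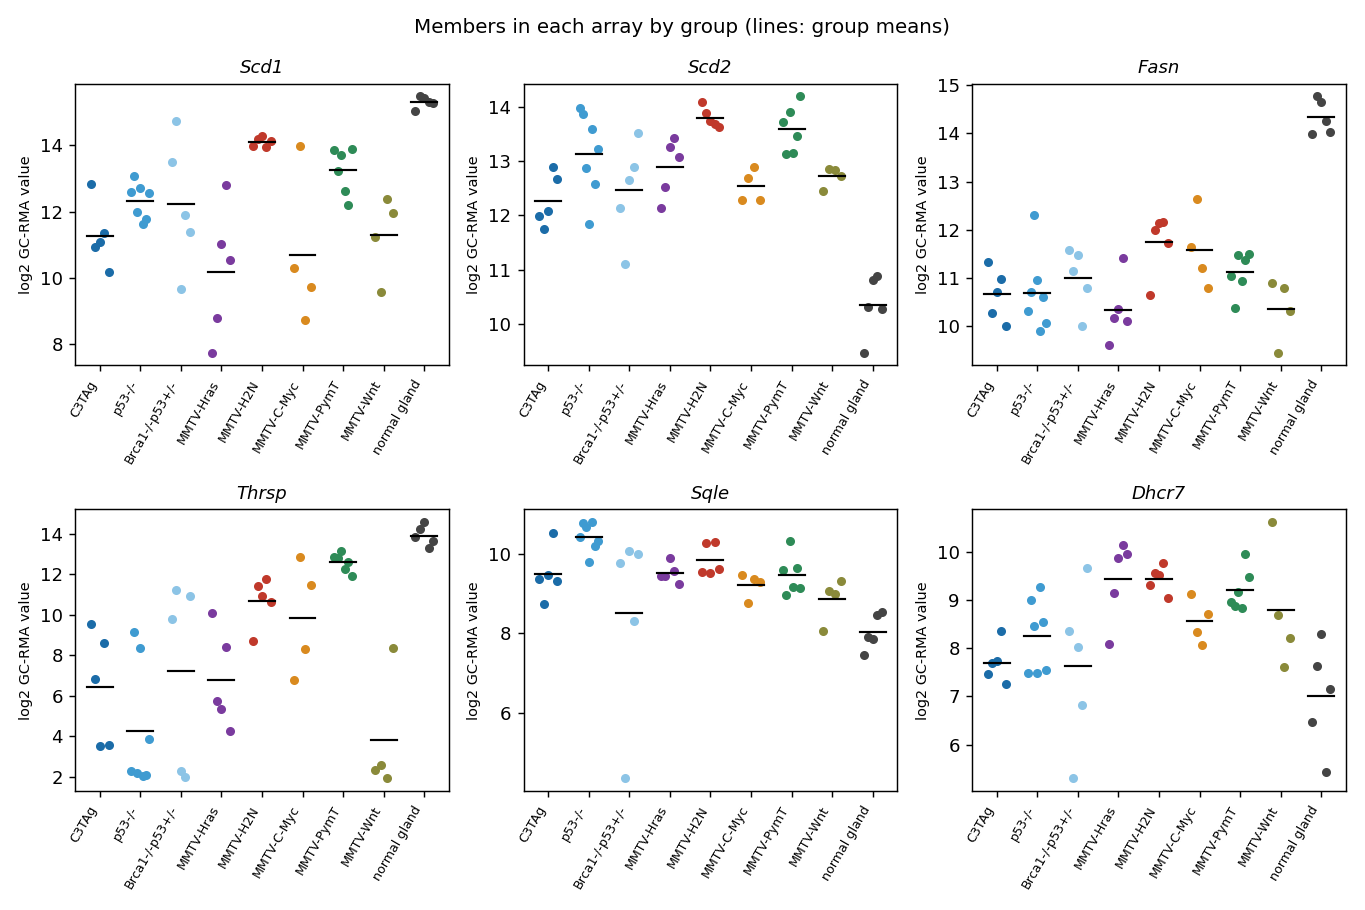
Log2 GC-RMA value (y axis) of 6 members in every array, by group (x axis; points are arrays, lines are group means). Scd1, Fasn and Thrsp are highest in the 5 glands, Scd2 is lowest there, and Sqle and Dhcr7 are lower in the glands than in most tumors.

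The 5 genes of glycerolipid assembly, which esterify fatty acids into phospholipid and triglyceride, were all called lower (all genes 17.1%). Dgat2, a diacylglycerol acyltransferase of triglyceride storage, read 11.94, 13.63, 13.26, 10.85 and 11.49 in the glands and 3.22 to 10.80 (median 5.09) in the tumors, a difference of -6.84 (SE 0.74, adjusted p = 1.54e-09). The highest tumor value was again that of Brca1-/-p53+/- replicate 2. Lpin1, a phosphatidate phosphatase, read 11.47, 11.62, 11.12, 11.54 and 10.70 in the glands and 5.14 to 10.19 in the tumors (difference -3.53, SE 0.48, adjusted p = 1.79e-07). Gpam, which adds the first acyl chain to glycerol-3-phosphate, differed by -2.76 (SE 0.37), Dgat1 by -2.36 (SE 0.42) and Agpat1, which adds the next chain, by -2.34 (SE 0.34).

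The regulators did not follow one pattern. Thrsp, or Spot14, a regulator of lipogenesis in mammary gland and liver, read 13.83, 14.22, 14.57, 13.28 and 13.66 in the glands and 1.91 to 13.13 (median 8.38) in the tumors (difference -6.21, SE 1.21, adjusted p = 6.78e-05). No tumor reached the glands, and its group means spread more than those of any other member, from 13.91 in gland to 3.78 in MMTV-Wnt. Srebf1 read 10.62, 11.17, 11.33, 11.72 and 11.68 in the glands and 8.19 to 14.32 in the tumors, with 16 tumors below the lowest gland and 14 above the highest (difference -0.05, SE 0.41, adjusted p = 0.932). Srebf2 read 6.79, 7.80, 7.67, 8.44 and 7.77 in the glands and 6.55 to 10.56 in the tumors. Its difference of 0.87 (SE 0.36) just missed the threshold (adjusted p = 0.0522), whereas its other probe set gave 2.18 and was called higher (limma, adjusted p = 8.68e-06).

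The 4 sterol genes called higher, a share near that of all genes, were Stard4, Sqle, Dhcr7 and Cyp51. Stard4, which carries cholesterol between membranes, read 5.78, 6.46, 6.39, 6.49 and 6.18 in the glands and 4.66 to 9.98 (median 8.54) in the tumors (difference 2.11, SE 0.36, adjusted p = 9.4e-06), with 39 of 41 tumors above the highest gland. It gave 2.04 against gland replicates 4 and 5 alone (SE 0.57, limma adjusted p = 0.0115). Sqle, squalene epoxidase, a rate-limiting step after HMG-CoA reductase, read 7.46, 7.92, 7.86, 8.46 and 8.53 in the glands and 4.34 to 10.81 (median 9.53) in the tumors (difference 1.38, SE 0.42, adjusted p = 0.00771). Here 38 tumors lay above the highest gland and 1, Brca1-/-p53+/- replicate 2, lay below the lowest. Sqle gave 0.93 and was not called against gland replicates 4 and 5 alone (adjusted p = 0.392). Dhcr7, which catalyses the last step to cholesterol, read 6.48, 7.63, 8.30, 5.44 and 7.15 in the glands and 5.30 to 10.62 (median 8.71) in the tumors (difference 1.63, SE 0.42, adjusted p = 0.00157). The groups overlapped for Dhcr7, with 27 tumors above the highest gland, and against gland replicates 4 and 5 alone it gave 2.34 (limma adjusted p = 0.00801). Cyp51, which demethylates lanosterol, had a difference of 1.14 (SE 0.32, adjusted p = 0.00397), a call lost without gland replicate 1, the lowest gland at 5.90, and against replicates 4 and 5 alone (0.94, limma adjusted p = 0.205).

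The mevalonate steps gave no increase past the threshold. Pmvk, phosphomevalonate kinase, read 7.15, 8.17, 9.94, 7.74 and 7.92 in the glands and 3.65 to 9.25 (median 7.14) in the tumors (difference -1.26, SE 0.48, adjusted p = 0.0315), a call lost without gland replicate 2 or 3 and against replicates 4 and 5 alone (-0.91, limma adjusted p = 0.455). Mvd, the decarboxylase that follows it, read 4.48, 4.99, 4.49, 6.34 and 5.84 in the glands and 4.05 to 5.47 in the tumors (difference -0.65, SE 0.21, adjusted p = 0.0126), a call lost without gland replicate 4 or 5, the highest glands, against which alone it gave -1.52 (limma adjusted p = 0.000187). Fdps, farnesyl diphosphate synthase, read 6.74, 8.80, 8.42, 8.42 and 7.10 in the glands and had a difference of 0.94 (SE 0.51, adjusted p = 0.136). Lss, lanosterol synthase, read 8.25, 8.71, 9.03, 7.82 and 7.53 in the glands and had a difference of -0.57 (SE 0.29, adjusted p = 0.118). Hmgcs1, HMG-CoA synthase, differed by -0.15 (SE 0.32, adjusted p = 0.719) with the probe set used, while a pair of its other probe sets gave -0.98 and -0.77 and were called lower. Fdft1, squalene synthase, differed by -0.10 (adjusted p = 0.822), and its other probe set by -0.64, also called lower. Idi1 (0.63), Hsd17b7 (0.08), Nsdhl (0.01), Sc5d (-0.06) and Ebp (-0.15) did not pass.

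Markers of fat cells and of milk-secreting cells moved with the fatty acid branch. All 9 measured adipocyte markers, of 12 listed, were called lower in tumors. Their mean level was -2.14 to 5.74 in tumors against 5.04 to 7.62 in glands. The marker Lep was under a log2 value of 3 in 39 of 41 tumors, so that it could pass the filter only with the glands. Its lower call adds no support where it is counted. Adipoq, adiponectin, read 13.22 to 14.35 in the glands and was under 3 in 19 of 41 tumors. Cidea, which is also high in brown fat, read 12.10 to 14.37 in all 5 glands, whereas the adipocyte level was 6.34, 7.62 and 6.96 in the glands high in Ucp1 and 5.16 and 5.04 in the other pair. Of 10 markers of secretory alveolar epithelium 9 were called lower, with a mean level of -5.69 to 4.44 in tumors and 5.41 to 5.87 in glands. Csn2, beta-casein, read 15.21 to 15.50 in the glands and 2.23 to 15.12 in the tumors. In whole tissue, fewer cells of a type and less RNA per cell cannot be told apart, and the part of these markers in the fatty acid differences was not tested. Over all genes 17.1% were lower and 24.2% higher against the 5 glands. With only the glands low in Ucp1, 8 of 9 adipocyte and 7 of 10 secretory markers were lower (all genes 7.87%). Of the other marker lists, 5 of 5 proliferation and 4 of 6 macrophage genes were higher, 3 of 6 fibroblast and 2 of 4 endothelial genes were lower, 2 of 7 epithelial genes were higher and 2 lower, and 0 of 2 T cell genes passed; liver markers were not analysed here.

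Each of the 8 models was compared with the same 5 glands, so these comparisons are not independent. For the fatty acid branch the number called lower was 18 of 21 in C3TAg (all genes 18.5%), 18 in p53-/- (16.6%), 19 in Brca1-/-p53+/- (16.2%), 17 in MMTV-Hras (14%), 12 in MMTV-H2N (12.8%), 15 in MMTV-PymT (12.3%), 16 in MMTV-C-Myc (14.6%) and 16 in MMTV-Wnt (13.3%). Acaca, Acacb, Dgat2, Fasn, Elovl6, Acss2, Lpin1, Gpam, Agpat1, Dgat1 and Acly were called lower in each of the 8 models, and Scd2 higher in each, by 1.92 (SE 0.36) in C3TAg to 3.45 (SE 0.36) in MMTV-H2N. Srebf1 was the other fatty acid gene called higher in any model, in MMTV-H2N only. Among the lower calls, those of Acaca were largely set by the filter, which it passed through the glands alone. The share of all genes called in every model was not counted. Since the 8 models share the same 5 glands, agreement across models adds no separate support. Against gland replicates 4 and 5 alone, Acaca, Acacb, Dgat2, Fasn and Acly were still called lower in each of the 8 models and Scd2 higher, whereas the number of fatty acid genes called lower was 7 in MMTV-H2N (all genes 6.6%), 10 in MMTV-PymT (5.87%) and 12 to 16 in the other models. Without the 4 tumors that stand apart, Brca1-/-p53+/- lost 7 of its 23 calls over both branches, Fads2, Acss1, Thrsp, Dgat1, Srebf1, Lss and Nsdhl, and gained Sqle, Cyp51 and Dhcr7 as higher. Only replicates 1 and 5 of that model remained in this setting.

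For the sterol branch the number called higher was 4 of 16 in C3TAg (all genes 29.4%), 5 in p53-/- (26.1%), 1 in Brca1-/-p53+/- (16%), 5 in MMTV-Hras (14%), 5 in MMTV-H2N (22.3%), 6 in MMTV-PymT (20.3%), 2 in MMTV-C-Myc (17.1%) and 1 in MMTV-Wnt (14.5%). Those shares are near the share of all genes called higher in several models. The number called lower was 2 in C3TAg, p53-/-, Brca1-/-p53+/- and MMTV-C-Myc, 1 in MMTV-Hras, MMTV-H2N and MMTV-Wnt, and, in the limma fit, 0 in MMTV-PymT (also 0 at an unadjusted p under 0.05). Of all genes 12.3% (MMTV-PymT) to 18.5% (C3TAg) were called lower. Median sterol differences were above 0 in 5 models, up to 0.80 in MMTV-H2N, and below 0 in Brca1-/-p53+/- (-0.32), MMTV-C-Myc (-0.45) and MMTV-Wnt (-0.13). Against gland replicates 4 and 5 alone, 3 of 16 were higher in C3TAg (all genes 18.3%), p53-/- (12.9%), MMTV-H2N (9.24%) and MMTV-PymT (6.72%). The number was 2 in MMTV-Hras (4.44%), 1 in MMTV-C-Myc (7.56%) and MMTV-Wnt (4.97%), and 0 in Brca1-/-p53+/- (5.11%). Stard4 was called higher in every model except MMTV-Wnt, by 1.43 (SE 0.45) in p53-/- to 3.19 (SE 0.48) in C3TAg, and its calls in p53-/-, Brca1-/-p53+/- and MMTV-C-Myc were lost against those 2 glands. Dhcr7 was called higher in the 5 MMTV oncogene models and in p53-/-, from 1.26 (SE 0.51) in p53-/- to 2.45 (SE 0.55) in MMTV-H2N. Sqle had its largest difference in p53-/- (2.39, SE 0.52), and Cyp51 in C3TAg (1.98, SE 0.43). Fdps was called higher in C3TAg, p53-/- and MMTV-PymT, where it reached 2.35 (SE 0.65). Each of these Fdps calls was lost against gland replicates 4 and 5 alone. Pmvk was lower by 3.40 on the log2 scale (SE 0.64) in MMTV-Hras.

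**Figure D3:**
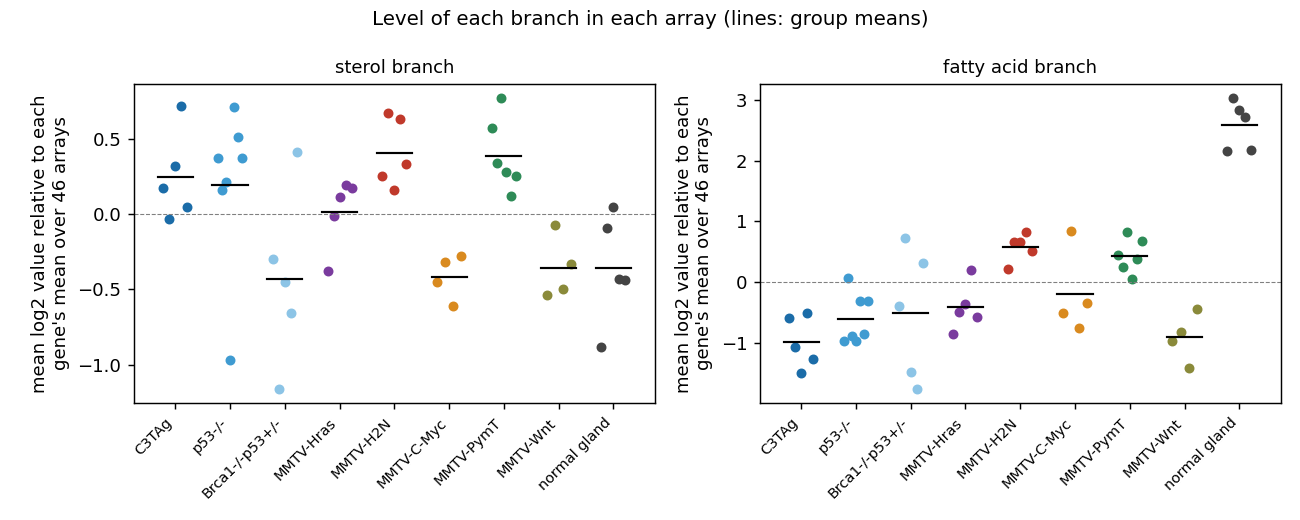
Level of each branch in each array (y axis, mean over its genes of the log2 value minus that gene's mean over 46 arrays) by group (x axis; lines are group means). The 5 glands lie at 2.16 to 3.03 for the fatty acid branch, above all tumors, and at -0.88 to 0.05 for the sterol branch, among the tumors.

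Averaged over its genes, the fatty acid branch lay at 2.16, 3.03, 2.83, 2.72 and 2.18 in the glands and at -1.76 to 0.84 in the tumors. Its group means ran from 0.57 in MMTV-H2N and 0.43 in MMTV-PymT through -0.20 in MMTV-C-Myc, -0.42 in MMTV-Hras, -0.52 in Brca1-/-p53+/- and -0.61 in p53-/- to -0.92 in MMTV-Wnt and -0.99 in C3TAg. The ranges of neighbours in this order overlapped, apart from the step from the glands to the tumors. The 5 MMTV-H2N tumors (0.21 to 0.82) lay above all 5 C3TAg tumors (-1.50 to -0.51) and all 4 MMTV-Wnt tumors (-1.42 to -0.44). Their adipocyte level was -1.71 to -0.53 and their secretory level 2.50 to 3.85, so that the first lay within and the second in the upper part of the range of all tumors. The sterol branch spread less between groups, from -0.43 in Brca1-/-p53+/- to 0.41 in MMTV-H2N, with the glands at -0.36. Within Brca1-/-p53+/- the 5 tumors ran from -1.16 to 0.41, wider than the spread of the group means.

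The 8 tumor models differed from each other in 12 of 16 sterol genes and 15 of 21 fatty acid genes (moderated F test, adjusted p under 0.05), close to the 74.5% of all genes. The highest F values among members belonged to Srebf1 (12.94), Me1 (12.41), Nsdhl (10.72), Lss (9.50), Thrsp (7.94) and Fads1 (7.01). Acly, Acaca, Acacb, Dgat1 and Dgat2, all lower than in gland in each model, were among the 10 members that did not pass. Acaca was under a log2 value of 3 in all 41 tumors and Acacb in 32, where values have no order. The test could therefore hardly find a difference among models for this pair.

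**Figure D4:**
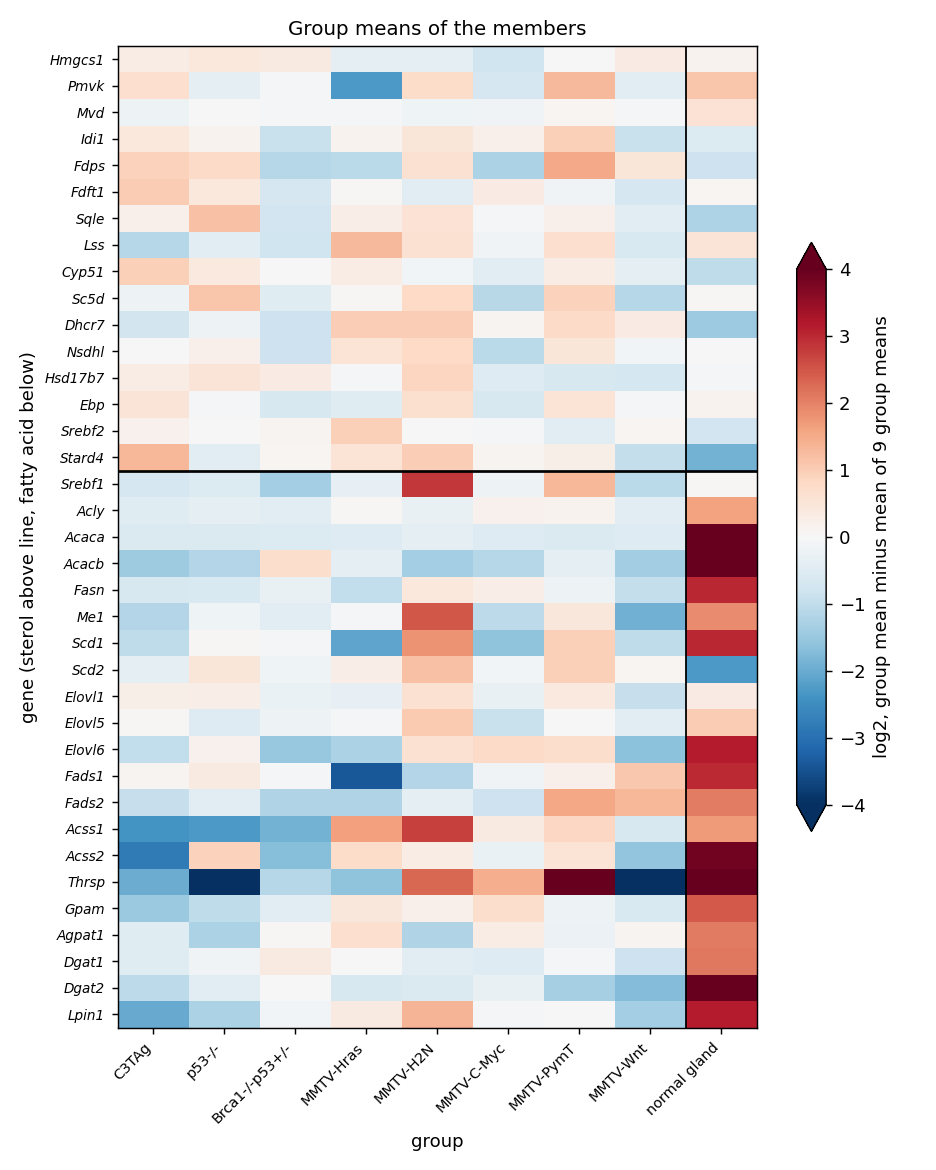
Mean log2 value of each member (rows, sterol above the line and fatty acid below) in each group (columns), relative to the mean of the 9 groups; red is higher, blue lower, with colours ending at 4 and -4. The column of normal gland is red for most fatty acid genes, and MMTV-H2N stands out for Srebf1, Me1 and Acss1, MMTV-Hras for Pmvk and Fads1.

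MMTV-H2N tumors had the highest Srebf1 of all groups. Against the mean of the other 7 models 13 members were higher (all genes 16.1%) and 1 lower (9.07%). Of the secretory alveolar markers 7 of 10 were higher and 0 lower in this model (median 4.36), and their part was not tested. Srebf1 read 13.65, 14.04, 14.28, 14.10 and 14.32 in MMTV-H2N and 8.19 to 13.50 (median 10.95) in the other 36 tumors, without overlap, a difference of 3.23 (SE 0.42, adjusted p = 3.26e-07). Me1 read 13.73, 13.31, 13.01, 13.37 and 13.00 against 7.61 to 12.27, also without overlap (difference 3.10, SE 0.39, adjusted p = 1.98e-07). The share of all genes that separate MMTV-H2N from the other tumors without overlap was not counted. Acss1 read 10.62, 11.54, 11.96, 11.62 and 11.45 against 2.91 to 10.82 (difference 3.36, SE 0.83, adjusted p = 0.00283), with 4 of 5 tumors above all others. The members whose calls held without any 1 array were these and Scd1 (2.50, SE 0.59), Lpin1 (2.01, SE 0.48), Elovl5 (1.36, SE 0.27), Scd2 (1.00, SE 0.27), Nsdhl (0.92, SE 0.21) and, as lower, Agpat1 (-1.09, SE 0.34). Leaving out MMTV-H2N replicate 4 reduced the number higher from 13 to 8.

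MMTV-PymT tumors had the highest mean Thrsp of the tumor models. Against the other models 13 members were higher (all genes 10.9%) and 0 lower (6.89%; 1 at an unadjusted p under 0.05). Thrsp ran from 11.90 to 13.13 (median 12.71) in the 6 MMTV-PymT tumors and from 1.91 to 12.84 (median 8.29) in the other 35, a difference of 5.59 (SE 1.13, adjusted p = 0.000818). Markers of secretory alveolar epithelium were high in this model too, 4 of 10 called higher and 0 lower with a median of 3.23, and their mean level of 1.02 to 3.98 exceeded that of most other tumors; their part in the Thrsp difference was not tested. Srebf1 ran from 12.05 to 13.50 (median 12.29), lower than each MMTV-H2N tumor and higher by 1.52 than the mean of the other models (SE 0.39, adjusted p = 0.00597). Pmvk ran from 6.51 to 9.25 (median 8.69), a difference of 1.64 (SE 0.45, adjusted p = 0.00958). These were the 3 calls that held without any 1 array. Without replicate 1 or replicate 3 the number higher was 3, without replicate 2 it was 5, and without replicate 4 or 6 it was 7.

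MMTV-Hras tumors were low in a desaturase and in phosphomevalonate kinase and high in lanosterol synthase. Against the other models 4 of 37 members were higher (all genes 9.64%) and 3 lower (14.8%), shares near or below those of all genes. Fads1 read 4.99, 6.37, 8.36, 3.69 and 8.55 in MMTV-Hras and 6.55 to 12.44 (median 9.82) in the others, a difference of -3.46 (SE 0.55, adjusted p = 1.94e-05). Pmvk read 3.78, 3.78, 4.33, 5.76 and 6.25 against 3.65 to 9.25 (median 7.26), a difference of -2.45 (SE 0.48, adjusted p = 0.000286). Lss read 9.64, 8.54, 8.68, 9.17 and 9.24 against 5.99 to 9.25 (median 7.47), a difference of 1.55 (SE 0.30, adjusted p = 0.000211). The calls of Scd1 (-1.99), Agpat1 (1.08), Srebf2 (0.97) and Nsdhl (0.63) were each lost without some array. The number higher was 2 without replicate 2 or replicate 4 and 1 without replicate 5, and the number lower was 6 without replicate 4.

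**Figure D5:**
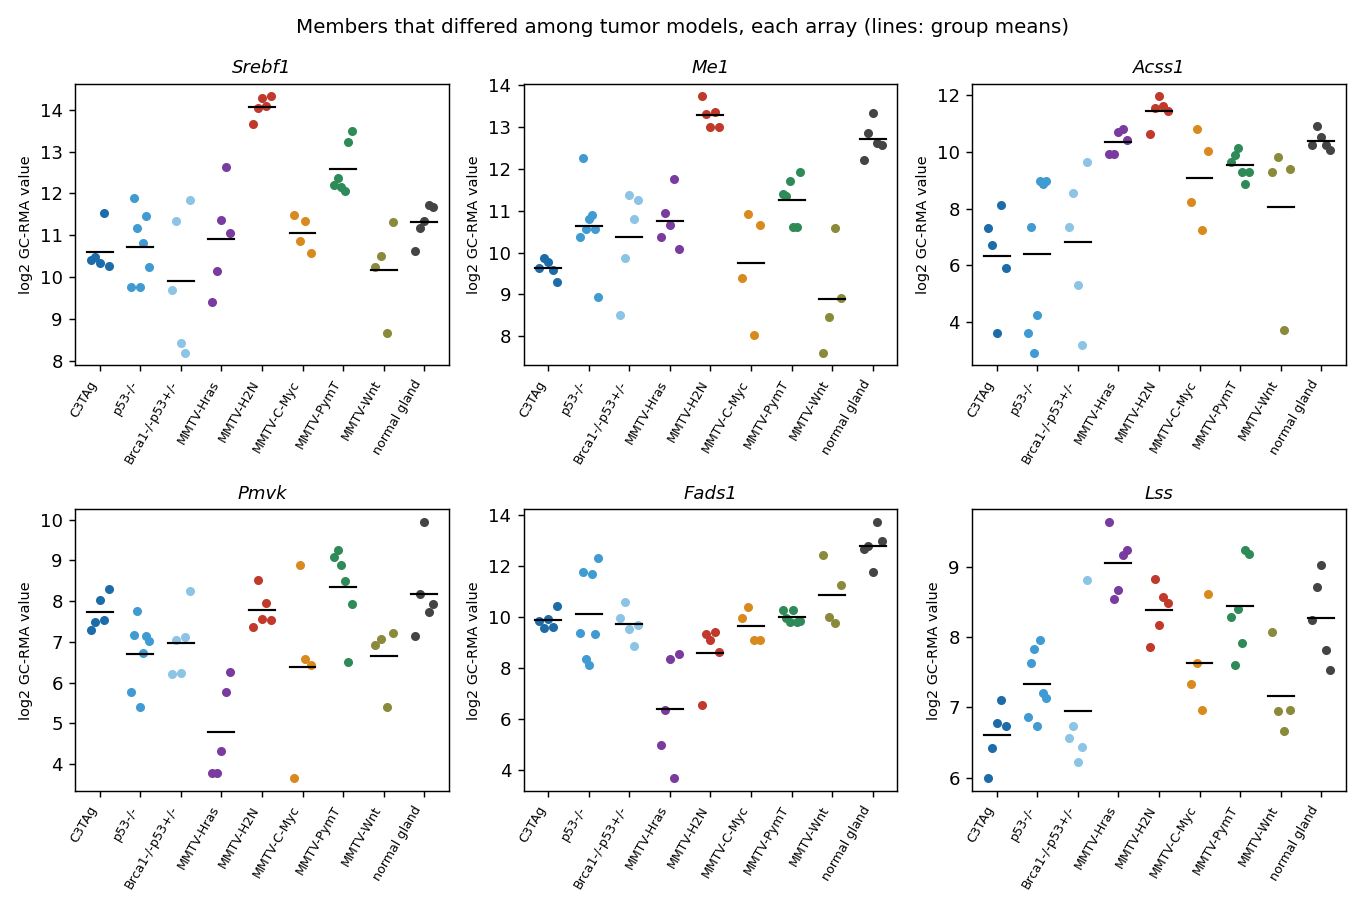
Log2 GC-RMA value (y axis) of Srebf1, Me1, Acss1, Pmvk, Fads1 and Lss in every array, by group (x axis; points are arrays, lines are group means). MMTV-H2N is highest for Srebf1, Me1 and Acss1; MMTV-Hras is lowest on average for Pmvk and Fads1 and highest on average for Lss.

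C3TAg tumors were low in Acss2, Lpin1 and Lss and high in Stard4. Against the other models 4 of 37 members, all sterol genes, were higher (all genes 19.5%) and 7 lower (9.42%). The share higher is thus below that of all genes. Secretory alveolar markers were low as well, 5 of 10 called lower (median -3.68), and their part was not tested. Acss2 read 4.42, 3.94, 3.48, 5.59 and 5.84 in C3TAg and 2.56 to 10.74 (median 7.62) in the others, a difference of -2.67 (SE 0.66, adjusted p = 0.00193). Lpin1 read 6.53, 6.33, 5.67, 6.96 and 5.24 (difference -1.85, SE 0.48, adjusted p = 0.00335), all below the median of 8.07 in the others. Lss read 5.99, 6.42, 6.78, 7.11 and 6.74, all below the median of 7.89 in the others (difference -1.24, SE 0.30, adjusted p = 0.00148). Stard4 read 9.26, 9.30, 9.77, 9.98 and 8.96, all above the median of 8.38 in the others (difference 1.23, SE 0.36, adjusted p = 0.00906). These calls and those of Gpam (-1.36) and Fdft1 (1.18) held without any 1 array, but Gpam was not called when its probe sets were averaged, the other of which was over 4 in only 4 arrays. The number higher was 2 without replicate 1, and the number lower was 4 without replicate 3.

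In p53-/- tumors 3 of 37 members were higher (all genes 10.6%) and 3 lower (5.69%) than in the other models, shares near those of all genes. Sc5d, sterol C5-desaturase, ran from 8.25 to 9.95 (median 9.39) against a median of 8.21 in the others (difference 1.29, SE 0.32, adjusted p = 0.00407). Thrsp was at 2.27, 9.15, 2.16, 8.35, 2.01, 2.06 and 3.83, so that 4 of 7 tumors were under 3 while replicates 2 and 4 were far above them (difference -3.92, SE 1.06, adjusted p = 0.00932). Those 2 tumors also had the highest secretory alveolar level of the model, 1.16 and 1.18, against -5.32 to -0.82 in the other 5, and the part of these cells was not tested. Agpat1 ran from 4.51 to 5.80 (median 5.31) against a median of 6.15 (difference -1.15, SE 0.29, adjusted p = 0.00578). The calls of Sqle (1.16), Acss2 (1.59) and Acss1 (-2.39) were lost without certain arrays, and the number higher was 1 without replicate 1, 2 or 5. The number lower was 5 without Brca1-/-p53+/- replicate 3.

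In Brca1-/-p53+/- tumors 0 members were higher (all genes 6.75%; 1 at an unadjusted p under 0.05) and 7 lower (11.9%), 5 of them sterol genes. Nsdhl, which removes a methyl group of lanosterol derivatives, read 8.79, 7.89, 8.39, 8.05 and 9.35 against 8.0 to 10.57 (median 9.57) in the others, a difference of -0.96 (SE 0.21, adjusted p = 0.00205). It was the only call that held without any 1 array. Without replicates 2, 3 and 4 and the MMTV-Wnt tumor that stands apart, 0 members were called lower (limma, 1 at an unadjusted p under 0.05). Only replicates 1 and 5 of this model remained, so that the loss of arrays and the loss of unlike tumors cannot be told apart. The number lower was 4 without replicate 1 or 3, 3 without replicate 2, 2 without replicate 4 and 13 without replicate 5, whose Srebf1, Fdps and Lss were the highest of its group.

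MMTV-C-Myc tumors were lower in Nsdhl and Sc5d and in no other of 37 members (all genes 4.76%), a share near that of all genes. They were higher in 0 (4.76%, with 3 at an unadjusted p under 0.05). Nsdhl read 8.06, 8.11, 8.0 and 8.80, all below the median of 9.53 in the other 37 tumors (difference -1.24, SE 0.23, adjusted p = 0.000461). Sc5d read 8.17, 6.71, 6.93 and 6.77 (difference -1.26, SE 0.40, adjusted p = 0.039), a call lost without some arrays. The number lower was 1 without replicate 3 or 4 and 4 without MMTV-Hras replicate 1 or Brca1-/-p53+/- replicate 2. Fatty acid genes varied within this model, since Scd1 read 10.31, 13.98, 8.72 and 9.74 and Acss2 4.95, 10.74, 6.99 and 6.14, with replicate 2 highest for both. That tumor also had the highest secretory alveolar level of all tumors, 4.44, and an adipocyte level of 1.41.

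MMTV-Wnt tumors were lower in 5 members (all genes 3.69%) and higher in 0 (2.64%; 2 at an unadjusted p under 0.05). Thrsp read 2.31, 2.56, 1.91 and 8.35, with 3 tumors under 3 (difference -4.47, SE 1.35, adjusted p = 0.0365). Replicate 4 also had the highest secretory alveolar level of the model, -0.99 against -5.27 to -3.97, and the part of these cells was not tested. Me1 read 7.61, 8.46, 10.58 and 8.91 (difference -1.93, SE 0.43, adjusted p = 0.00404). Stard4 read 6.57, 7.85, 6.82 and 7.52 (difference -1.35, SE 0.40, adjusted p = 0.0333). None of the 5 calls held without each array: the number lower was 0 without replicate 1, and 2 without replicate 3 or replicate 4.

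The study groups C3TAg, p53-/- and Brca1-/-p53+/- as basal-type and the 5 MMTV oncogene models as luminal-type. As pooled classes, 24 luminal-type and 17 basal-type tumors differed in 3 sterol genes, Hmgcs1 higher in basal-type (0.59, SE 0.21) and Lss (-1.20, SE 0.25) and Dhcr7 (-1.22, SE 0.27) lower. Of the fatty acid genes Thrsp (-3.28, SE 1.12), Acss1 (-3.27, SE 0.60), Srebf1 (-1.45, SE 0.43), Lpin1 (-1.26, SE 0.40) and Gpam (-1.10, SE 0.27) were lower in basal-type tumors and 0 higher, against 15.9% of all genes higher and 12% lower. With the model as a random block (correlation within models 0.313) 0 of these 8 calls remained, with adjusted p from 0.111 for Lss to 0.410 for Hmgcs1 and 5 lower at an unadjusted p under 0.05. Tumors of a model are thus not independent draws of a class, and all Balb/C and 129B6/FVB tumors are basal-type.

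Within models, members of the same branch varied together only weakly. After the mean of its model was removed from each gene, the median correlation over 41 tumors was 0.19 for 120 pairs of sterol genes, 0.14 for 210 pairs of fatty acid genes and 0.07 for 336 pairs between branches, against 0.02 for 124750 pairs of genes drawn from all tested. The highest correlations were 0.77 for Fads2 and Acss1, 0.69 for Acss1 and Acss2, 0.69 for Gpam and Dgat2, and 0.68 for Dhcr7 and Srebf2. Cyp51 and Sc5d reached 0.64, as did Fdps and Scd2 from different branches. These values are descriptions over arrays that were normalized together, and they carry no test.

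Genes around the branches were read from lists of pathway neighbours. Of 16 further sterol genes 4 were higher in tumors than in gland and 2 lower, with a median difference of 0.25. Over all genes 24.2% were higher and 17.1% lower, with a median of 0.20, so this list is near the background. Abcg1, which exports cholesterol to HDL, read 7.45, 7.11, 6.25, 6.62 and 7.11 in the glands and 8.27 to 11.55 in the tumors, without overlap (difference 2.58, SE 0.30, adjusted p = 6.53e-09). Lpin2 (1.27), Mbtps1, a protease that activates SREBP (1.18), and Apoe (1.11) were also higher, and Nr1h3, the sterol sensor LXR alpha (-2.54, under 3 in 37 tumors and in 1 gland), and Scarb1, an HDL receptor (-0.78), were lower. Of 23 further fatty acid and lipid genes 16 were lower (all genes 17.1%) and 0 higher, with a median of -2.21. Among the 16, Mlxipl was under a log2 value of 3 in 39 of 41 tumors and could pass the filter only with the glands. Its lower call adds no support where it is counted. Olah, the thioesterase that releases medium-chain fatty acids in milk, read 11.47, 11.40, 9.68, 12.58 and 11.54 in the glands and 2.16 to 5.92 in the tumors (difference -8.64, SE 0.36, adjusted p = 1.37e-21). Fabp3, a fatty acid carrier of lactating gland (-11.17, SE 1.01), Cd36, a fatty acid transporter (-7.19, SE 0.98), and Btn1a1, which coats milk fat droplets (-7.13, SE 1.03), were lower as well, beside the adipocyte and alveolar markers given above. Olah was under a log2 value of 3 in 33 of 41 tumors, Fabp3 in 29 and Btn1a1 in 18, so that the low end of the scale limits the size of these differences, and Cd36 in 0. Against gland replicates 4 and 5 alone 12 of the 23 lipid genes were lower (all genes 7.87%), these 4 among them. Of the 16 sterol genes Abcg1 and Mbtps1 then stayed higher (all genes 7.79%) and Scarb1 lower, while Lpin2, Apoe and Nr1h3 were not called.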

How the data were processed

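Biotin-labelled cRNA of each tumor or gland was hybridized to an Affymetrix mouse genome array. Scans were collected in GCOS. The values deposited by the authors are GC-RMA summaries made in Partek, which correct for probe GC content and normalize between arrays, on the log2 scale. Per the methods, detection by MAS5 in at least 3 samples was asked of a probe set. Versions and array batches were not given. Matched miRNA arrays are left out here.

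The table held 18586 probe sets (log2 1.70 to 15.98, array medians 6.48 to 7.48). The platform annotation gave 16962 of them 1 gene, 569 several and 1055 none, and 16941 matched RefSeq (GRCm38.p6) by gene ID. Genes with log2 over 4 in at least 3 arrays entered, with 1 probe set each (highest mean). Groups came from the sample titles. Tests used limma 3.58.1 (lmFit, eBayes; R 4.3.3) in a fit of 9 groups, or of 2 classes of tumors, with Benjamini-Hochberg adjustment over 9329 genes and calls at adjusted p under 0.05. The code was tested on simulated data. Plots were made in Python 3.11.15 with matplotlib 3.10.9. Precision is limited by group sizes of 4 to 7 arrays. The p-values measure the spread between tumors, which came from individual mice, and between glands.

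Alternatives covered scaling, filter, probe set choice, prior, FVB arrays only, replicate block, separate fits, the model as a random block, each array left out and, chosen after seeing the data, 4 tumors or 3 glands left out. The members, lists and tests were chosen with earlier results of these data known. Single-array values are given for Srebf1, Srebf2 and the 6 members per branch with the largest spread of group means; those of other members were chosen after their values were seen. Any member may be named.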

Additional observations from a re-analysis of the deposited data

Results flagged for a closer look

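Values of 16 members (those with single-array values by rule, Scd1 and Scd2) and both branch levels were screened in each of the 9 groups. Of these 162 sets of 4 to 7 arrays, 10 held a single array set apart by Dixon's criterion. Chance alone flags about 1 in 20, so the number flagged is close to what chance gives. The arrays below are listed as descriptions only. Thrsp read 8.35 in MMTV-Wnt replicate 4 and 1.91 to 2.56 in the other 3; its secretory alveolar level was also highest, -0.99 against -5.27 to -3.97, and the part of these cells was not tested. Lss read 8.82 in Brca1-/-p53+/- replicate 5 and 6.22 to 6.73 in the other 4. The sterol branch level was -0.97 in p53-/- replicate 4 and 0.16 to 0.71 in the other 6. MMTV-H2N replicate 1 stood apart for both Dgat2 (7.02, others 5.10 to 5.36) and Fads1 (6.55, others 8.64 to 9.42). C3TAg held Srebf1 at 11.54 in replicate 4 (others 10.26 to 10.47) and Fdps at 8.83 in replicate 2 (others 9.73 to 10.07). Acacb read 4.07 in p53-/- replicate 7 and 3.19 in MMTV-C-Myc replicate 4, where all others of those groups were under 3, a range in which values have no order. Pmvk read 5.39 in MMTV-Wnt replicate 3, one of the tumors that stand apart, and 6.93 to 7.22 in the other 3.

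A pair of members was called higher than in gland in one model and lower in another, and only for this pair, chosen for those calls, were the models compared directly, so the p-values describe a selected contrast. Srebf1 was higher by 2.78 in MMTV-H2N and differed by -1.41 in Brca1-/-p53+/-, a difference of 4.19 between them (SE 0.55, limma adjusted p = 7.19e-07), and all 5 MMTV-H2N tumors lay above all 5 Brca1-/-p53+/- tumors. Nsdhl was higher by 0.82 in MMTV-H2N and differed by -0.83 in Brca1-/-p53+/-, a difference of 1.64 (SE 0.28, adjusted p = 3.66e-05), again without overlap, a trait whose share over all genes was not counted. It was also called lower in MMTV-C-Myc (-1.07, adjusted p = 0.00479), a difference of 1.89 from MMTV-H2N (SE 0.30, limma adjusted p = 1.46e-05). Both Brca1-/-p53+/- calls against gland, and that of Nsdhl in MMTV-C-Myc, were lost against gland replicates 4 and 5 alone, and both Brca1-/-p53+/- calls also without the 4 tumors that stand apart.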

How the results depend on the processing

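The 24 calls of tumors against gland were kept without the 4 tumors that stand apart, and 20 of them whichever array was left out. Against gland replicates 4 and 5 alone, 20 were kept, 2 sterol genes were higher and 1 lower, and Hmgcs1 gave 0.57, Fdft1 1.05, Lss 0.023 and Hsd17b7 -0.33, none of them called. Members that were not called changed sign: Nsdhl gave -0.12 with quantile normalization and -0.19 with equal array medians, Hsd17b7 -0.12 with equal medians and -0.052 with FVB arrays only, and Srebf1 0.27 with FVB arrays only and 0.12 without the 4 tumors. Leaving out single arrays, the differences ran from -0.36 to 0.090 for Hmgcs1, -0.42 to 0.14 for Fdft1, -0.19 to 0.14 for Sc5d, -0.12 to 0.18 for Nsdhl, -0.022 to 0.32 for Hsd17b7, -0.22 to 0.055 for Srebf1 and -0.61 to 0.00099 for Elovl1. Of the sterol genes 3 to 6 were then higher and 1 to 3 lower than in gland (1 lower without gland replicate 2, 3, 4 or 5), and 16 to 18 fatty acid genes were lower.

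Counts of members against gland moved by over 1.5 times as follows. C3TAg had 3 higher with quantile normalization or equal medians, and 3 to 7 without single arrays (3 without C3TAg replicate 4 or gland replicate 1). Brca1-/-p53+/- had 5 higher without the 4 tumors, and 2 to 4 without single arrays (4 without replicate 2). MMTV-H2N had 13 higher when only its arrays and the glands were fitted. MMTV-Wnt had 4 higher with FVB arrays only, 1 when fitted with the glands alone, and 1 to 2 without single arrays (1 without its replicate 1 or gland replicate 4). Over single arrays p53-/- had 4 to 9 higher, MMTV-C-Myc 2 to 4 and MMTV-PymT 5 to 8. Against gland replicates 4 and 5 alone, a fit with fewer glands, Brca1-/-p53+/- had 1 higher, MMTV-Hras 3, MMTV-PymT 4 and MMTV-H2N 8 lower, and Brca1-/-p53+/- 1 higher than the other models.

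Against the other models, C3TAg had 2 higher with quantile normalization or equal medians, and 2 to 4 higher and 4 to 8 lower without single arrays. In p53-/-, 5 were lower with either scaling or without the 4 tumors, and 1 to 3 were higher and 2 to 5 lower without single arrays. In Brca1-/-p53+/-, 1 was higher with equal medians or the replicate block, 3 were lower with either scaling and 0 without the 4 tumors; single arrays gave 0 to 1 higher and 2 to 13 lower. MMTV-Hras had 7 higher with either scaling and 7 lower with FVB arrays only, and 1 to 6 higher and 2 to 6 lower without single arrays. MMTV-H2N had 0 lower when probe sets were averaged, and 8 to 15 higher without single arrays. MMTV-C-Myc had 1 higher with either scaling, averaged probe sets or without the 4 tumors and 2 with FVB arrays only, and 1 lower with either scaling and 4 with averaged probe sets or FVB arrays only; single arrays gave 0 to 1 higher and 1 to 4 lower. MMTV-PymT had 8 higher with equal medians or the replicate block, and 3 to 13 without single arrays. MMTV-Wnt had 1 higher with FVB arrays only or without the 4 tumors and 3 lower with equal medians; single arrays gave 0 to 1 higher and 0 to 6 lower.

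Between the classes 0 sterol genes were higher in basal-type tumors with either scaling, the replicate block or the model as a random block, 3 with FVB arrays only, 4 without the 4 tumors and 0 to 3 without single arrays. With the random block 0 sterol and 0 fatty acid genes were lower.

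Equal array medians lowered the share of all calls against gland that were higher from 58.6% to 45.4% (1717 higher, 2064 lower). Between classes that share was 56.96% in the fit reported, 47.7% with quantile normalization, 45.8% with equal medians and 68.4% with FVB arrays only, and the class calls of all genes fell to 19 higher and 30 lower with the random block. Arrays of the same replicate number shared only that number (mean correlation of deviations 0.014 over 166 pairs), and a replicate block left 2254 genes higher and 1597 lower. The cause of these shifts was not tested. Values near the low end of the scale, under a log2 value of 3, have no order.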

Other observations

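Genes of fatty acid oxidation, which burn rather than build fatty acids, were lower in tumors than in gland beside those of synthesis. Fewer were called without the 3 glands high in the brown fat marker Ucp1. Of 13 measured, 11 were lower (all genes 17.1%) and 0 higher (24.2%), with a median log2 difference of -2.32. Against gland replicates 4 and 5, in which Ucp1 is low, 5 were lower, Cpt2, Hadha, Hadhb, Ehhadh and Pdk4, with a median of -0.90. Over all genes 7.87% were then lower, and the lower calls fell from 1597 to 734 genes with the smaller set of glands. Ehhadh, the peroxisomal bifunctional enzyme, read 11.38, 11.73, 11.12, 11.66 and 10.90 in the glands and 2.65 to 8.75 in the tumors, without overlap (difference -5.85, SE 0.47, adjusted p = 1.15e-12). Cpt2, which releases acyl-CoA inside mitochondria, read 11.62, 12.72, 12.72, 10.78 and 10.74 in the glands and 7.55 to 10.53 in the tumors, also without overlap (difference -2.93, SE 0.30, adjusted p = 4.25e-10). Pdk4 (-5.26, SE 0.90) and Ppara (-4.43, SE 0.59) were lower too, but Ppara read 7.75, 10.39 and 9.95 in the glands high in Ucp1 and 2.20 and 4.06 in the others, against which alone it gave -0.69 (limma adjusted p = 0.289). It was under 3 in 37 of 41 tumors. Adipocyte markers and Ucp1 moved with this list, and their part was not tested. The setting without those glands was chosen after the values were seen and rests on gland replicates 4 and 5.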
